A study of Mus musculus with 4 samples.

Results

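The BAF complexes, also called mammalian SWI/SNF, are chromatin remodellers that use ATP to slide or evict nucleosomes. Their genes were taken from a list of 10 names, and each was looked for among the probes of the arrays through the transcript accession printed with the probe. Of the 10 listed genes, 8 had a matched probe and all 8 were tested, out of 33378 genes or transcripts on the arrays, 21216 of them tested. Together they had 14 probes, 13 of which were above background on at least 1 array. Arid1a and Arid1b, the large DNA-binding subunits, had no matched probe and are not analysed here.

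The study compared 4 RNA samples of the mouse. The embryonic stem (ES) cells were E14 cells of strain 129 (n = 1). The induced pluripotent stem (iPS) cells were lines 7 and 13 (n = 2), made from bone marrow mononuclear cells, labelled C57BL/6 and derived from mice carrying an Oct4-EGFP transgene, a green fluorescent reporter of the pluripotency gene Oct4. The bone marrow mononuclear cells (BMMNCs, n = 1) were labelled C57BL/6 with no genetic modification named. ES and iPS cells were grown with serum and leukaemia inhibitory factor on irradiated mouse embryonic fibroblasts, and these feeder cells were reduced by plating on gelatin ahead of RNA isolation. BMMNCs are a mixture of blood cell types, whereas each iPS line and the ES cells are cultured lines, and no culture was repeated. The only replicate spread in the p-values is therefore that between the 2 iPS lines, and the single ES and BMMNC arrays were assumed to vary like them.

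Each array holds 1 sample read in a single colour, and a level is the log2 processed signal minus that array's 75th percentile over probes. The share of probes well above background ran from 54.6% in BMMNCs to 59.0% in line 7, and no spot was saturated. With 4 arrays, precision is limited by their number. Probes differ in brightness, so a level is compared between arrays for 1 probe and never between genes. The cell labels were checked against marker genes. The summed linear level of 11 pluripotency genes was 1.56 in BMMNCs, 547.45 in iPS line 7, 564.2 in iPS line 13 and 704.6 in ES cells; in BMMNCs 5 of the 11 were well above background. The sums of 10 pan-haematopoietic genes were 490.2, 2.61, 2.76 and 2.45 in the same order. The 15 fibroblast genes, which would mark feeder cells, summed to 97.4, 862.3, 790.8 and 711.7, and all 15 were well above background in ES and iPS cells. A sum can hide single genes. Among the 11 pluripotency genes, the difference of iPS lines from ES cells ran from -3.69 (Zfp42) to 1.13 on the log2 scale.

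A BAF complex is built around 1 ATPase, either Smarca4 (BRG1) or Smarca2 (BRM). Around it sit Smarcb1 (BAF47), the scaffold subunits Smarcc1 (BAF155) and Smarcc2 (BAF170), and 1 of the 3 BAF60 paralogues Smarcd1, Smarcd2 and Smarcd3. Paralogues take the same place in the complex, and their choice is known to change with cell type. The form described in mouse ES cells holds Smarca4, Smarcc1 and Smarcd1, and forms of many differentiated cells also use Smarca2, Smarcc2 or Smarcd3. Smarcd2 is known for its need in granulocyte formation, and Smarcd3 for its role in heart and muscle.

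The 3 BAF60 genes differed from BMMNCs in both directions, each measured by 1 probe with no second probe to check it. In BMMNCs Smarcd3 was not well above background. The promoters of these genes are shown first. They are the windows from 250 bases before to 50 bases after the annotated start in RefSeq's table for GRCm38.p6, written on the gene's strand. Capitals mark matches to GGGCGG, the core of the GC box bound by Sp1-type factors. All 8 measured members were found in that table. The Smarcd1 window lies at chr15:99702037-99702336 on the plus strand, that of Smarcd2 at chr11:106267583-106267882 on the minus strand and that of Smarcd3 at chr5:24601953-24602252 on the minus strand.
Smarcd1: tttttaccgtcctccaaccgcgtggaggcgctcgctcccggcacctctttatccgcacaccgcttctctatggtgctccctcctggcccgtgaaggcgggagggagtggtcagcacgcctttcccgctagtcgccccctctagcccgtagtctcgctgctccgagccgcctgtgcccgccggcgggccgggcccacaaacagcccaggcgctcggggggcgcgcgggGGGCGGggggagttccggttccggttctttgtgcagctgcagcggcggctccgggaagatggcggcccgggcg
Smarcd2: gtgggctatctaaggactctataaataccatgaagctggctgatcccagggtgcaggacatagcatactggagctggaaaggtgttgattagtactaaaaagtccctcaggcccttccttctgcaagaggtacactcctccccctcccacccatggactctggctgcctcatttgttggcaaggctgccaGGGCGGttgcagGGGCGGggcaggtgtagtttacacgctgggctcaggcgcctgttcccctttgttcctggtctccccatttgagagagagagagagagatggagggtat
Smarcd3: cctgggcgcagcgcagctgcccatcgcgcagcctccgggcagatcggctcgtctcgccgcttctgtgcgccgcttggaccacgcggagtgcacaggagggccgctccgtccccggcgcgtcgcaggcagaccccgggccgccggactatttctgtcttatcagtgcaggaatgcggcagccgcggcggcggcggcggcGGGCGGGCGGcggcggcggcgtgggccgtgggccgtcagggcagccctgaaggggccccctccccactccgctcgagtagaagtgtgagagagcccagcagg
The Smarcd1 window held 1 GGGCGG match, and those of Smarcd2 and Smarcd3 held 2 each, overlapping in Smarcd3. The Smarcd2 window had 4 CpG dinucleotides, against 35 in Smarcd1 and 40 in Smarcd3 and a median of 7 over all 32851 windows. The windows of Smarcd2 and Smarcd3 begin inside the gene's annotated span, so longer transcripts start upstream of them, and which start is used in these cells was not measured. Over all 8 measured members, searched on both strands, GGGCGG was found in 8 windows against 35.7% of all windows, and CCAAT in 0 against 37.4%. TATAAA was in 1 member's window, that of Smarcd2, against 13.6% of all windows. CCGGAAG, the core of ETS factor sites, was in 2 (Smarca2 and Smarcc1) against 8.86%. GAGGAAG, a motif of the blood factor PU.1, was in 1 (Smarcb1) against 13.6%. CACGTG (7.15% of all windows) and ATGCAAAT (1.74%) were in 0 of 8. A match is a description of letters and shows no binding, and base composition differs between these windows: the 7 members other than Smarcd2 had 27 to 48 CpG.

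The first comparison set the iPS lines beside BMMNCs, the cell type they were made from, since the study is about reprogramming. Smarcd1 and Smarcd3 were higher in the iPS lines, and Smarca2, Smarcc2, Smarcd2 and Smarca4 were lower. Thus 6 of 8 members passed the threshold (limma, Benjamini-Hochberg adjusted p under 0.05), 2 higher and 4 lower. The background was 75.6% of all genes tested, with 38.3% higher and 37.4% lower, so the share of members called was close to that of all genes. A difference of at least 2-fold was found in 5 of 8 members against 55.5% of all genes. The median difference of the members was -0.15 on the log2 scale, also with Smarcd3 at its bound, against 0.0075 over all genes. In RNA from whole populations, fewer cells of a type and less RNA per cell cannot be told apart. Every blood list moved with this contrast: the 9 erythroid genes with a probe summed to 1576 in BMMNCs and to between 0.521 and 0.820 on the other 3 arrays, and the part of cell mixture in the members' differences was not tested.

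**Figure D1:**
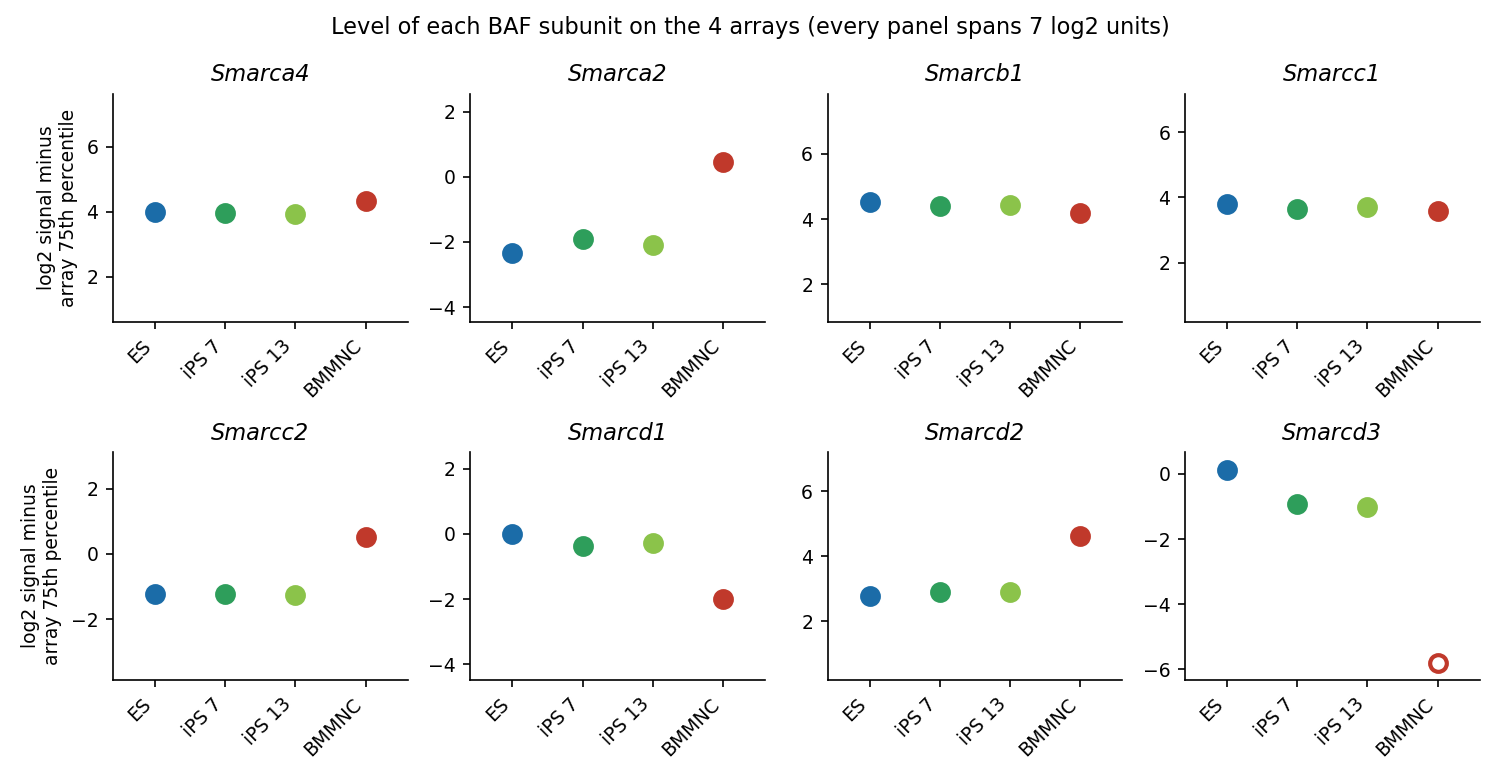
Levels of the 8 measured BAF genes on each of the 4 arrays, as log2 processed signal relative to the array's 75th percentile, 1 point per array, with open symbols where the gene was not well above background. Only the brightest probe of each gene is drawn. By it the BMMNC array stands apart from the other 3 for Smarca2, Smarcc2, Smarcd1, Smarcd2 and Smarcd3, while Smarcb1 and Smarcc1 stay close on all 4. The second Smarcc1 probe, not drawn, was at -3.37 in BMMNCs and between -1.18 and -0.97 on the other 3 arrays.

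Of the ATPases, Smarca2 was at 0.44 in BMMNCs, at -1.91 in iPS line 7, at -2.10 in iPS line 13 and at -2.34 in ES cells. All 3 pluripotent arrays were low and the BMMNC array was high. Smarca2 was 5.48-fold lower in the iPS lines than in BMMNCs (log2 difference -2.45, SE 0.13, limma adjusted p = 0.00202). In ES cells it was 6.88-fold lower (log2 difference -2.78, adjusted p = 0.00243). A second Smarca2 probe was well above background in BMMNCs alone and was at least 6.41-fold lower in iPS lines and at least 6.03-fold lower in ES cells. The remaining Smarca2 probe was dim on all 4 arrays. The first and the second probe thus gave the same direction, although they carry different accessions.

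Smarca4, the other ATPase, was at 4.34 in BMMNCs, at 3.95 in iPS line 7, at 3.92 in iPS line 13 and at 3.98 in ES cells. The BMMNC array was the highest, by a small margin. The iPS lines were 1.32-fold below it (log2 difference -0.40, SE 0.094, adjusted p = 0.0368), and the ES difference of -0.36 did not pass (adjusted p = 0.0665). The call in iPS lines was lost in 5 of 10 alternative settings, with differences from -0.61 to -0.23 and adjusted p up to 0.160. The 3 Smarca4 probes disagreed. The second gave -0.79 in iPS lines against BMMNCs, and the third, which was dimmer but above background on every array, gave 0.49 (adjusted p = 0.0246 in a limma fit over probes). In ES cells the third probe gave 0.77 (adjusted p = 0.0132). The direction of Smarca4 therefore depends on the probe.

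The core subunit Smarcb1 is shared by the canonical BAF complexes and is a known tumour suppressor. It was at 4.20 in BMMNCs, at 4.40 in iPS line 7, at 4.45 in iPS line 13 and at 4.51 in ES cells. The iPS difference was 0.23 (95% interval of the fit -0.090 to 0.54, adjusted p = 0.125), and the ES difference was 0.31 (-0.052 to 0.68, adjusted p = 0.0892). Neither passed, and the upper bounds are 1.46-fold and 1.60-fold. Under alternative settings Smarcb1 passed in 4 of 10 for iPS lines and in 5 of 10 for ES cells, always higher than in BMMNCs.

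Among the scaffold subunits, Smarcc2 was at 0.51 in BMMNCs, at -1.22 in iPS line 7, at -1.26 in iPS line 13 and at -1.24 in ES cells. The 3 pluripotent arrays lay within a narrow band below the BMMNC array. Smarcc2 was 3.37-fold lower in iPS lines (log2 difference -1.75, SE 0.094, adjusted p = 0.00195) and 3.37-fold lower in ES cells (adjusted p = 0.00284). Its second probe was well above background in BMMNCs alone and was at least 2.24-fold lower in iPS lines and at least 2.22-fold lower in ES cells.

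Its paralogue Smarcc1 was at 3.57 in BMMNCs, at 3.64 in iPS line 7, at 3.69 in iPS line 13 and at 3.80 in ES cells. The brighter probe showed no difference that passed, with 0.095 in iPS lines (95% interval -0.23 to 0.42, adjusted p = 0.436) and 0.23 in ES cells (adjusted p = 0.163). The second Smarcc1 probe, well above background on every array, was at -3.37, -1.002, -0.97 and -1.18 in the same order of arrays. It was 5.24-fold higher in iPS lines and 4.58-fold higher in ES cells than in BMMNCs (adjusted p = 0.00108 and 0.00177 in the fit over probes). With the mean of both probes Smarcc1 differed by 1.24 and passed in iPS lines (adjusted p = 0.00373). The probes thus disagree in size, and the choice of the brighter one set the call.

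**Figure D2:**
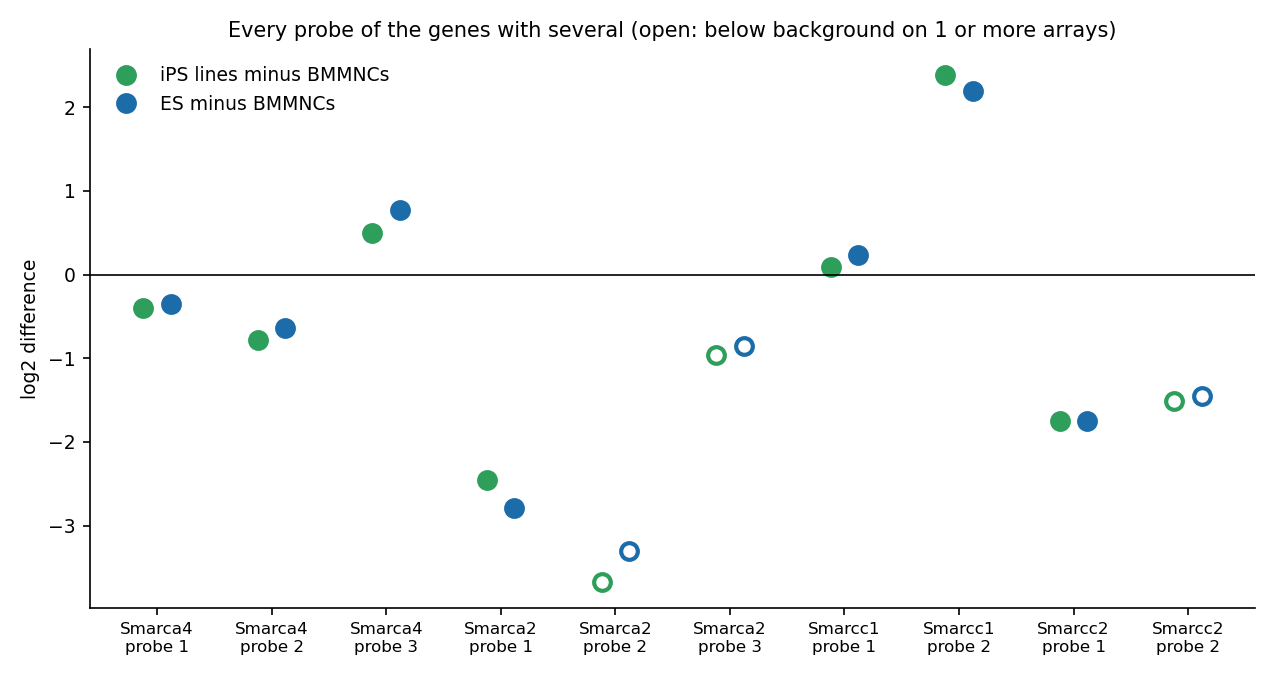
Log2 difference of every probe of the 4 BAF genes with several probes, 1 point per probe and comparison, open where the probe was below background on 1 or more arrays, between iPS lines and BMMNCs and between ES cells and BMMNCs. The third Smarca4 probe lies above 0 while the other 2 lie below it, and the second Smarcc1 probe lies at 2.39 for iPS lines against 0.095 for the first.

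Of the BAF60 paralogues, Smarcd2 was lower in the pluripotent cells than in BMMNCs, and Smarcd1 and Smarcd3 were higher. Smarcd2 was at 4.61 in BMMNCs, at 2.89 in iPS line 7, at 2.90 in iPS line 13 and at 2.79 in ES cells. It was 3.28-fold lower in iPS lines (log2 difference -1.71, SE 0.092, adjusted p = 0.00196) and 3.54-fold lower in ES cells (adjusted p = 0.0026). The 10 granulocyte genes summed to 2554 in BMMNCs and to between 0.141 and 0.300 on the other 3 arrays. Smarcd2 was high on the array with high granulocyte markers, and the part of that cell type in the result was not tested.

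Smarcd1 was at -1.98 in BMMNCs, at -0.36 in iPS line 7, at -0.29 in iPS line 13 and at 0.012 in ES cells. Here the BMMNC array was the lowest and the ES array the highest. Smarcd1 was 3.16-fold higher in iPS lines (log2 difference 1.66, SE 0.099, adjusted p = 0.00229) and 3.99-fold higher in ES cells (adjusted p = 0.00251).

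Smarcd3 was at -0.93 in iPS line 7, at -1.03 in iPS line 13 and at 0.13 in ES cells. In BMMNCs it was not well above background, with a measured value of -5.79, so only a bound can be given. A bound compares the bright group with the gene's own dim signal or, where that is lower, with the weakest signal on that array still marked well above background. Smarcd3 was at least 14.9-fold higher in iPS lines and at least 32.2-fold higher in ES cells. The limma tests were made on the measured differences of 4.81 and 5.92, which use the dim BMMNC value (adjusted p = 0.000749 and 0.00109). They are no tests of the bounds. These bounds hold for the processed signal only. With another background correction (normexp, which adds an offset of 50 to each signal) Smarcd3 was 4.54-fold higher in iPS lines and 9.03-fold higher in ES cells, below both bounds, and both differences still passed. Smarcd1, Smarcd2 and Smarcd3 had 1 probe each, so no second probe checks them. The 15 fibroblast genes, 9 of them above background in BMMNCs, were also higher on the 3 arrays with high Smarcd3, and their part in it was not tested.

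**Figure D3:**
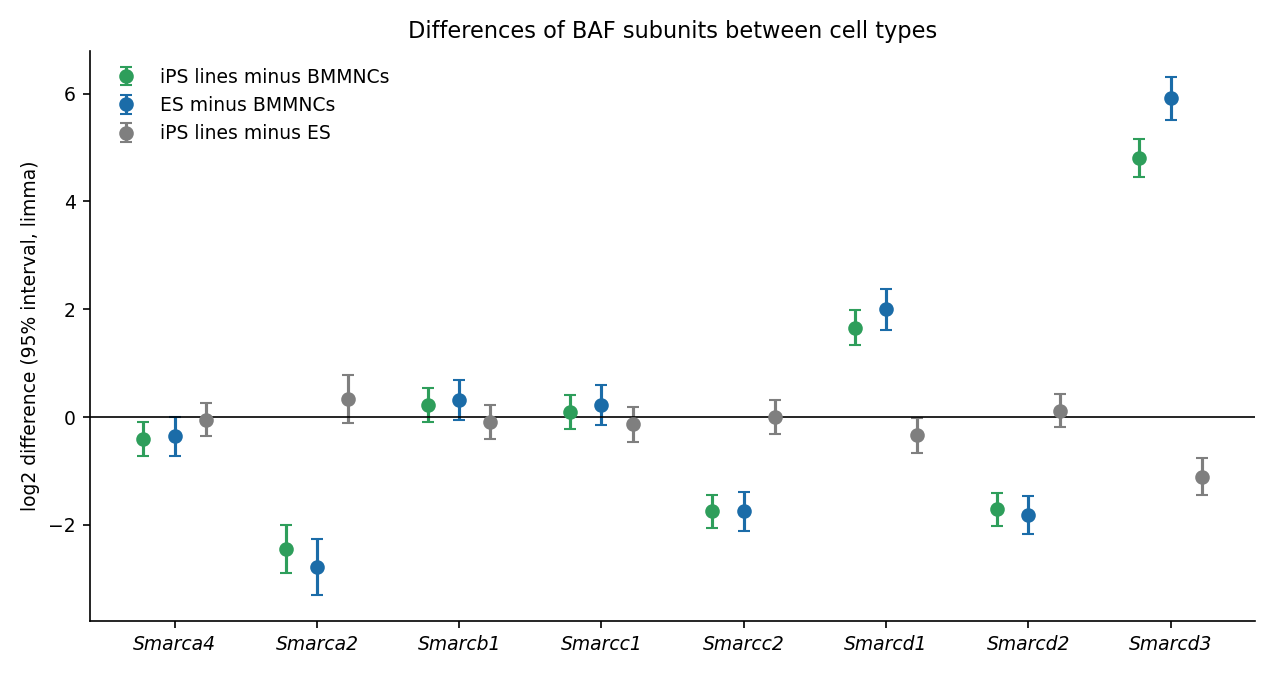
Log2 differences of the 8 measured BAF genes with 95% intervals from the limma fit, for iPS lines against BMMNCs, ES cells against BMMNCs and iPS lines against ES cells. Smarcd3 against BMMNCs is drawn at its measured value although BMMNCs gave only a bound; against ES cells the interval for Smarcd3 runs from -1.45 to -0.76.

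ES cells against BMMNCs compared 1 array with 1. Here 5 of 8 members passed, 2 higher and 3 lower, against a background of 73.6% of all genes (39.1% higher, 34.5% lower). The median of the members was -0.063 against 0.067 over all genes. At least 2-fold differences were found in 5 of 8 against 56.4%. The 5 members were Smarcd1, Smarcd3, Smarca2, Smarcc2 and Smarcd2. Both comparisons use the same BMMNC array, so the ES values are given beside the iPS values and are no independent support. The BMMNC array lay outside the range of the other 3 arrays for 8 of 8 members, 4 above and 4 below, against 88.8% of all genes (43.7% above, 45.1% below).

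Paralogue pairs were then set side by side, as the change of the difference between 2 genes from the BMMNC array to another array. This needs no comparison of brightness between probes, and it carries no test. From BMMNCs the balance of Smarca4 over Smarca2 moved by 1.97 in line 7, 2.13 in line 13 and 2.43 in ES cells, all towards Smarca4. The balance of Smarcc1 over Smarcc2 moved by 1.80, 1.89 and 1.98, towards Smarcc1. That of Smarcd1 over Smarcd2 moved most among pairs measured on every array, by 3.34, 3.40 and 3.82, or 10.3-fold in iPS lines and 14.1-fold in ES cells. The first 2 pairs use the brightest probe of Smarca4 and Smarcc1, whose other probes disagreed in sign or size as given above.

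Smarcd3 shifted further than both of its paralogues. With Smarcd3 at its bound in BMMNCs, the balance of Smarcd1 over Smarcd3 moved by -2.32 in line 7, -2.16 in line 13 and -3.01 in ES cells. That of Smarcd2 over Smarcd3 changed at least 48.9-fold in iPS lines and at least 114.0-fold in ES cells. These bounds too hold for the processed signal only. Under normexp the shift of Smarcd2 over Smarcd3 was 14.2-fold in iPS lines and 30.6-fold in ES cells, and that of Smarcd1 over Smarcd3 was -0.98 and -1.63 on the log2 scale, in the same direction. From BMMNCs to pluripotent cells the order of change was Smarcd2 down, Smarcd1 up and Smarcd3 up most.

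**Figure D4:**
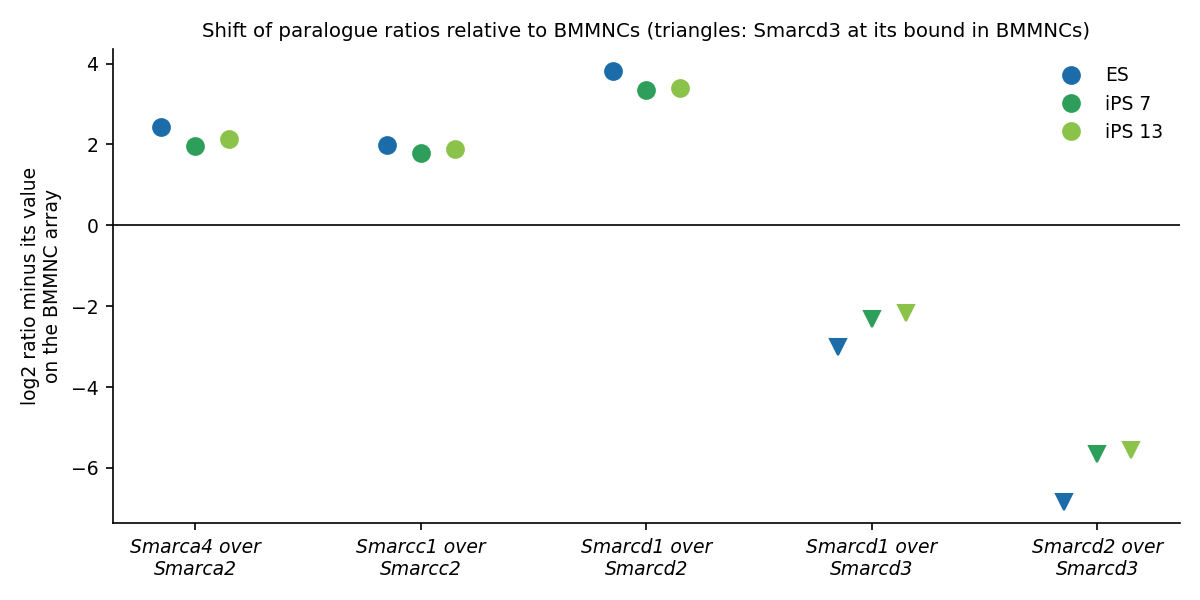
Change in the log2 difference between paralogues from the BMMNC array to lines 7 and 13 and to ES cells. The pairs Smarca4 over Smarca2, Smarcc1 over Smarcc2 and Smarcd1 over Smarcd2 lie above 0 on all 3 arrays, and the pairs with Smarcd3 as the second gene, drawn at the bound, lie below 0.

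The iPS lines were next compared with ES cells, the reference pluripotent line of the study. Only Smarcd3 passed, so 1 of 8 members was called, against a background of 4.78% of all genes (1.97% higher, 2.81% lower). It was also the 1 member of 8 that differed by at least 2-fold, against 9.86% of all genes. Smarcd3 was 2.16-fold lower in the iPS lines (log2 difference -1.11, SE 0.10, 95% interval -1.45 to -0.76, adjusted p = 0.04998). It lay just inside the threshold, and the call was lost in 4 of 8 alternatives, with adjusted p up to 0.194 and differences from -1.13 to -0.99. Both lines lay below the ES array. Strain differs between the groups as well as cell origin, 129 for ES cells and C57BL/6 for iPS lines, and only the iPS lines carry the Oct4-EGFP transgene, and these cannot be told apart.

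The other 7 members did not pass. Under alternative settings Smarcd1 passed in 3 of 9 (lower) and Smarca2 in 2 of 9 (higher), all in settings where at least 27.2% of all genes passed. Smarcd1 differed by -0.34 (95% interval -0.67 to -0.012, adjusted p = 0.155) and Smarca2 by 0.33 (-0.12 to 0.77, adjusted p = 0.232). Smarcc2 differed by 0.00077 (-0.31 to 0.31), Smarca4 by -0.046 (-0.36 to 0.27), Smarcb1 by -0.087 (-0.40 to 0.23), Smarcc1 by -0.14 (-0.46 to 0.19) and Smarcd2 by 0.11 (-0.19 to 0.42). Each interval lies within 1 log2 unit of 0, which bounds these differences at under 2-fold in this fit. The median over members was -0.067, against -0.051 over all genes. In the paralogue pairs the iPS lines stood from ES cells by -0.45 and -0.30 for Smarca4 over Smarca2, and by 1.17 and 1.27 for Smarcd2 over Smarcd3, in lines 7 and 13.

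Lines 7 and 13 compare 1 array with 1, with no test. None of the 8 members differed by 2-fold, against 3.24% of all genes. The largest gap was in Smarca2, with line 7 higher by 0.19, and the smallest in Smarcd2, with -0.0094. The p-values above rest on these gaps only in part, since limma moderates each gene's spread towards a prior over all genes with an SD of 0.094 and 1.81 degrees of freedom, against 1 from the lines.

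The other subunits of BAF and of its relatives PBAF and ncBAF give the context. Of 20 listed, 16 had a probe and 15 were tested. In iPS lines against BMMNCs, 3 were higher and 9 lower, beside 38.3% and 37.4% of all genes, with a median of -0.99, also with Dpf1 and Dpf3 at their bounds, beside 0.0075 over all genes. Against ES cells 0 of 15 passed by limma, beside 4.78% of all genes. At an unadjusted p under 0.05 there were 5 of 15, beside 31.1% of all genes: Smarce1, Brd7, Dpf1, Dpf3 and Bcl11a. All 5 had negative differences by the probe used, and the second Smarce1 probe gave 0.70. In ES cells against BMMNCs, 3 were higher and 9 lower, beside 39.1% and 34.5% of all genes, with a median of -0.48 beside 0.067.

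The higher subunits were Dpf1, Actl6a and Ss18. Dpf1 (BAF45B), a PHD finger protein known from neurons, was not well above background in BMMNCs. By the bound defined above it was at least 18.5-fold higher in iPS lines and at least 24.2-fold higher in ES cells. Both equal the measured differences, since its dim signal of -4.87 lay above the weakest well-above signal of that array, -4.88. Like those of Smarcd3, the bounds of Dpf1 and of all other genes and probes hold for the processed signal only. Actl6a (BAF53A), the actin-related subunit of dividing cells, was at 2.78 in BMMNCs, at 4.18 in iPS line 7, at 4.22 in iPS line 13 and at 4.29 in ES cells. It rose by 1.42 (SE 0.094, adjusted p = 0.00275). Its neuronal paralogue Actl6b was dim, not well above background, on all 4 arrays. Ss18, a subunit known from the gene fusion of synovial sarcoma, rose by 0.83 (adjusted p = 0.0096).

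The lower subunits were led by Bcl11a, a zinc finger factor of B cells and fetal globin silencing, at 1.78 in BMMNCs, at -3.84 in iPS line 7, at -4.05 in iPS line 13 and at -3.34 in ES cells. It fell by 5.72 in iPS lines (SE 0.14, adjusted p = 0.000794). The 9 B cell genes with a probe summed to 178.3 in BMMNCs and to between 2.59 and 4.22 elsewhere, and the part of B cells in the Bcl11a value was not tested. Dpf3 (BAF45C) was not well above background in the iPS lines and was at least 10.5-fold lower there than in BMMNCs. The test was made on its measured difference of -4.18 (limma adjusted p = 0.00111). Against ES cells Dpf3 was at least 1.47-fold lower in iPS lines, and its measured difference of -1.34 did not pass (limma adjusted p = 0.0576).

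Bcl7a, a subunit first found in B cell lymphoma, fell by 2.92 (adjusted p = 0.00119). Bcl11b, the T cell relative of Bcl11a, fell by 1.11, and Bcl7c fell by 1.02 with its other 2 probes at -0.83 and -0.57. Phf10, a PBAF subunit, fell by 0.89. The remaining 3 rest on probes that differ. Brd7, a bromodomain subunit of PBAF, fell by 1.22 and its second probe gave -0.43. In ES cells against BMMNCs Brd7 was counted as lower at -0.45 (limma adjusted p = 0.0497), while its second probe gave 0.35. Smarce1 (BAF57) fell by 1.02, while its second probe gave 0.16. Ss18l1 fell by 0.99, and its second probe gave -0.35. Brd9, Dpf2 and Bcl7b did not pass in iPS lines, with differences of 0.14, 0.012 and -0.0012.

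**Figure D5:**
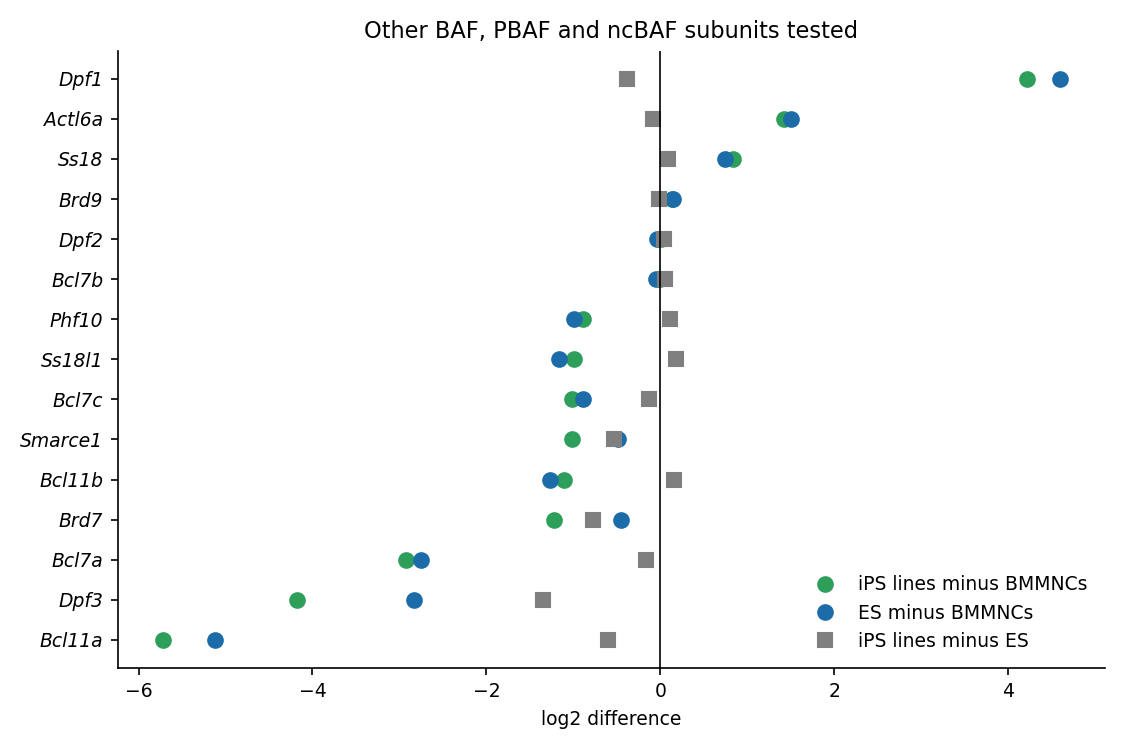
Log2 differences of the 15 tested other BAF, PBAF and ncBAF subunits for iPS lines against BMMNCs and ES cells against BMMNCs (circles) and iPS lines against ES cells (squares). Against BMMNCs, Bcl11a, Dpf3 and Bcl7a lie lowest and Dpf1 highest; Dpf1 and Dpf3 are drawn at measured values although each was not well above background in 1 of the groups.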

How the data were processed

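RNA of 4 samples was labelled with Cy3 and hybridised to 1-colour Agilent arrays, per the labels' protocols, and read with Agilent Feature Extraction 9.5 per the submitters' processing notes (9.5.1.1 per the file headers). The deposited scanner files hold intensities per spot: the authors' processed signal, which is background-subtracted per the file headers. All 4 arrays share 1 slide and scan. The deposited value table also holds intensities. Each column equals the processed signal times 1 constant for that array, on a linear scale with no centring by gene, and the origin of the constants is unknown. Its medians were 106.2 for BMMNCs, 135.9 and 133.6 for iPS lines 7 and 13, and 139.9 for ES cells.

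From these, spots flagged as outliers were left out and the remaining spots of a probe were averaged. The 14 probes with no spot left on at least 1 array were dropped. The log2 signal minus the array's 75th percentile over probes was used. That percentile was first taken over spots and changed after member values had been seen. Accessions matched to RefSeq's gene table (GRCm38.p6) named 22948 of 41160 probes. A gene took its probe of highest mean. limma 3.58.1 (R 4.3.3) was fitted to 21216 genes above background on at least 1 array, with 3 group means and 1 residual degree of freedom. P-values were adjusted by Benjamini-Hochberg over all of them (threshold 0.05). The fit was tested on simulated data, but no outcome of that test is given here, so it lends no support to the results above.

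The members and lists were chosen with earlier results of these data known. Named genes were all members with every probe, other BAF subunits that passed or differed by 2-fold, and the largest difference measured on both sides of each other remodeller list. Alternatives were other scaling, background correction, filters, probe rules and prior.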

Additional observations from a re-analysis of the deposited data

Results flagged for a closer look

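Smarcd3 differed between the pluripotent groups when these were compared with each other directly. The difference between the iPS lines and ES cells was -1.11 on the log2 scale (limma adjusted p = 0.04998), with both lines below the ES array and 4.78% of all genes passing in that comparison. The adjusted p lies at the threshold, and over the alternatives the highest was 0.194. No other member passed in that fit; Smarcd1 passed in 3 of 9 alternatives and Smarca2 in 2 of 9.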

How the results depend on the processing

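Smarca2, Smarcc2, Smarcd1 and Smarcd2 kept their calls and directions against BMMNCs in all 10 alternatives, and Smarcd3 in all 9 that gave it a value, in both comparisons. Members higher in iPS lines than in BMMNCs numbered 1 with genes above background on all 4 arrays (40.7% of all genes higher). That setting leaves Smarcd3 out. The number was 3 under quantile normalization (39.3%), normexp (35.2%), the authors' value table (41%), the mean of all probes (38.6%) and an intensity trend in eBayes (41.6%). Normexp and the trend gave 7 members in all, where 82.5% and 82.9% of all genes were called. Against ES cells, the members called numbered 0, with 0 lower, under quantile normalization (4.44% of all genes called) and the mean of all probes (3.96%), and also under the authors' value table and no filter on dim probes, where 0 of all genes were called. Under normexp there were 2, both lower (27.2% of all genes called). With genes above background on all 4 arrays there were 2, 1 of them higher (38.5%), and with the trend 3, with 1 higher and 2 lower (35.8%). For ES cells against BMMNCs, normexp and the trend each gave 8, with 4 higher, where 79.6% and 80.9% of all genes were called. The cause of these changes was not tested. No called difference changed sign over these settings, none of which used the third Smarca4 probe alone. That probe gave 0.49 in iPS lines against BMMNCs, opposite in sign to the call. Of those that did not pass, Smarcc1 turned to -0.11 in iPS lines and -0.061 in ES cells against BMMNCs under median scaling, and in iPS lines against ES cells the sign was kept in 8 of 9 alternatives for Smarca2 and Smarcc1, 7 for Smarca4 and 6 for Smarcc2. Median scaling moved the median of all genes in iPS lines against BMMNCs from 0.0075 to -0.20, and normexp to -0.20. The planned normexp on mean signals was not run, since the columns used here are medians; that version and the percentile over spots were chosen after seeing the data. Leaving out a line leaves no residual degree of freedom and gave values with no test: Smarcd3 in iPS against ES cells was -1.16 without replicate 7 and -1.06 without replicate 13. No paired analysis was possible because the iPS numbers name lines and the ES and BMMNC groups have 1 array each. With signal over background, Smarcd3 in BMMNCs has only a bound.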

Other observations

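Other remodeller families were counted in the same fit. Of 7 ISWI genes tested, 3 were higher and 2 lower in iPS lines than in BMMNCs, beside 38.3% and 37.4% of all genes (median 0.0012), with Baz2b, a bromodomain subunit, at -1.57 (adjusted p = 0.00297) the largest difference measured on both sides. Smarca1 (SNF2L), an ISWI ATPase, was not well above background in BMMNCs and was at least 11.3-fold higher in iPS lines. It was 2.17-fold lower in iPS lines than in ES cells (log2 difference -1.12, limma adjusted p = 0.0462). Smarca1 was the 1 ISWI gene of 7 that passed there, beside 4.78% of all genes. Its second probe gave -0.95. Other ISWI counts against BMMNCs rest on probes that differ in sign. Baz2a was at 1.08 in iPS lines by its brightest probe and at -0.52 and -0.12 by the others. Smarca5 was at 0.48, with its other probes at 0.52, -0.066 and -0.15. Baz1b was at -1.05, with its second probe at 0.059. The second probes of Baz2b and Smarca1 kept the sign.

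Of 15 CHD and NuRD genes, 9 were higher and 3 lower in iPS lines than in BMMNCs, beside 38.3% and 37.4% of all genes. Their median was 0.68 against 0.0075 over all genes. In ES cells 10 were higher and 3 lower, beside 39.1% and 34.5% of all genes, with Gatad2a at 2.02 the largest. Mta3, a NuRD subunit, was at 1.90 in iPS lines by its brightest probe, and its second probe gave -0.70, so its direction depends on the probe. The counts use each gene's brightest probe, and in some other genes too another probe gave the opposite sign. Chd4 was at -0.47 in iPS lines against BMMNCs by its brightest probe and at 0.58 and 0.91 by the others. Of 13 INO80 and SRCAP genes, 4 were higher and 5 lower in iPS lines (median 0.16), beside 38.3% and 37.4% of all genes. Ruvbl2, an AAA ATPase, led at 2.27 (limma adjusted p = 0.00162). In ES cells against BMMNCs, 4 of the 13 were higher and 4 lower, beside 39.1% and 34.5% of all genes. In iPS lines against ES cells 0 of 15 CHD and NuRD genes and 0 of 13 INO80 and SRCAP genes passed by limma. The background in that comparison was 4.78% of all genes. At an unadjusted p under 0.05 there were 3 and 2, where 31.1% of all genes lie. The largest differences were 0.55 in Mta3 and 0.50 in Ino80b.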
